A study of Mus musculus with 27 samples.

Results

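Ankrd1, Ankrd2 and Ankrd23, which encode the muscle ankyrin repeat proteins, Csrp3 and Fhl1, which encode LIM domain proteins, and Smpx, which encodes a small protein of the muscle cytoskeleton, were followed in mouse tibialis anterior muscle after volumetric muscle loss (VML). They were chosen by symbol, 6 of the 54532 genes in the deposited table, and all 6 were among the 14630 genes tested. RNA was sequenced from 27 muscles of C57BL/6 male mice. In the injured groups, 40% of the tibialis anterior was excised at 8 weeks of age. The groups were uninjured muscle (n = 5) and muscle taken 3 (n = 5), 7 (n = 6), 14 (n = 6) and 21 (n = 5) days after VML. No transgene or drug was part of any group. The excision is described as unilateral in the public record and as bilateral in the methods, and the labels do not say whether any 2 samples came from the same mouse, so the p-values below measure only the spread between these samples.

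The muscle ankyrin repeat proteins bind the spring segment of titin near the middle of the I-band, and they also enter the nucleus, which places them between the passive load on a sarcomere and its gene expression. Csrp3, the muscle LIM protein, sits at the Z-disc, where thin filaments of neighbouring sarcomeres meet, and Fhl1 binds sarcomeric titin and the Z-disc edge through its LIM domains, which are paired zinc fingers that hold other proteins. Several transcripts of this group are known to rise in muscle that is stretched, overloaded or remodelled.

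Ankrd1 was higher after VML at all 4 time points, Ankrd23 was lower at days 3, 14 and 21, and Ankrd2, Csrp3, Fhl1 and Smpx did not pass the test against uninjured muscle at any of the 4 time points. With limma on log2(FPKM + 1) and Benjamini-Hochberg adjustment over all tested genes, 2 of the 6 genes passed at day 3, where 43.2% of all tested genes did. At day 7 the count was 1 of 6 against 29.4% of all genes. It was 2 of 6 against 20.3% at day 14, and 2 of 6 against 3.43% at day 21. For 6 genes, the counts at days 3, 7 and 14 are near these background shares and say nothing of the genes as a group. The day 21 count cannot be read as an excess either, since the members were chosen with earlier results of these data known. Neither of the 2 day 21 calls held when the samples were scaled to a common sum. FPKM is a number of fragments divided by the length of the gene and by a read total, so its levels can be compared between genes.

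The tissue label was checked first. The 15 mature fast-fibre genes summed to between 111273 and 127608 FPKM in the uninjured muscles and to between 26512.7 and 82115.8 at day 3. Markers of heart muscle summed to at most 2.48 FPKM in any sample, with Nppa, Nppb and Mybpc3 listed at 0 in all uninjured ones. Macrophage markers summed to 4.46 to 5.36 FPKM in uninjured muscle and to 65.8 to 364 at day 3, where all 7 passed as higher. Their part in the differences below was not tested. In bulk muscle, fewer fibres and less RNA per fibre cannot be told apart. Reads totalled 14376395 to 24436763 per sample, and the FPKM carry a scaling between samples, with a denominator 0.747 to 1.48 times the sample's own total. This factor differed with the group, with means of 0.782 in uninjured muscle and 1.25, 1.18, 1.04 and 0.897 at days 3, 7, 14 and 21. Had each sample been scaled to a common sum (TPM), the median log2 difference of all tested genes from uninjured muscle would have moved up. The shift was 0.49, 0.44, 0.27 and 0.099 at days 3, 7, 14 and 21. With the sample's own total of reads it was 0.39, 0.33, 0.23 and 0.10, also upward. Of the injured libraries, 3 stood apart from the rest of their groups in the 14 regenerating-fibre genes. This mixed list includes the myosins Myh3 and Myh8, Myog and Myod1, the fusion factor Mymk, Ncam1 and the acetylcholine receptor subunits Chrng and Chrna1. The mean log2(FPKM + 1) of the list was 1.75 in day 7 replicate 3, 2.05 in day 7 replicate 6 and 2.67 in day 21 replicate 5, against 1.61 to 1.91 in uninjured muscle and 3.65 to 5.64 in the other injured libraries. Day 7 replicate 6 also held the highest sum of nerve sheath markers, at 793 FPKM. Whether these libraries carry the right labels was not tested, and the day 7 and day 21 values hold only as far as the labels do. Without the 3 libraries, values that changed a call are given for the levels, the shares and the levels relative to the fast-fibre genes, and the relations to the slow-fibre genes and to Ckm were computed with all samples.

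Ankrd1 (ENSMUSG00000024803), the cardiac ankyrin repeat protein, lies on the minus strand at chr19:36111965-36119844 of GRCm38. M-CAT elements (CATTCC, or GGAATG read on the other strand) are the sequences bound by TEAD factors, the partners of YAP and TAZ, and Ankrd1 is a well known target of that pathway, so the sequence before its start is shown. In the 250 bases before the RefSeq start (GRCm38.p6), Ankrd1 held 2 M-CAT matches, whereas 12.6% of 32851 promoter windows of this length held at least 1 and 1.02% held at least 2. GENCODE M21 has a longer first exon that covers this whole window, so each match is given with its flanks, at chr19:36120041-36120062 and chr19:36119954-36119975 of the minus strand, with the M-CAT in capitals.
Ankrd1 upstream match: ctgccaaaGGAATGaccctctc
Ankrd1 downstream match: ctaagtctGGAATGaaaattca
Of the other members, Ankrd23 alone held a match, in the window of the second of its RefSeq starts, at chr1:36535740-36535989 on the minus strand. The windows of Ankrd2 and of Csrp3 are shown beside it because these 2 genes followed each other from sample to sample, as described further on. The Ankrd2 window is on the plus strand at chr19:42035777-42035999, ending where the first annotated exon begins, and the Csrp3 window is on the minus strand at chr7:48848052-48848301.
Ankrd23 second start: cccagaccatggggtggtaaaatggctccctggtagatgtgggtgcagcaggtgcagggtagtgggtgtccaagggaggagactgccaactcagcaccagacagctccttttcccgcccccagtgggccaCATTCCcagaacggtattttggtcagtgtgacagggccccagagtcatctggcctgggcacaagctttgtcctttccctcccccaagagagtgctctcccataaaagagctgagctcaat
Ankrd2: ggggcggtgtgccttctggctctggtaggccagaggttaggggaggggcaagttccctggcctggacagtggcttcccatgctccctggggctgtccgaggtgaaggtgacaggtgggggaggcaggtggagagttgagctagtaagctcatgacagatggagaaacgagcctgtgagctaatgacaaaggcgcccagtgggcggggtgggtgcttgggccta
Csrp3 first start: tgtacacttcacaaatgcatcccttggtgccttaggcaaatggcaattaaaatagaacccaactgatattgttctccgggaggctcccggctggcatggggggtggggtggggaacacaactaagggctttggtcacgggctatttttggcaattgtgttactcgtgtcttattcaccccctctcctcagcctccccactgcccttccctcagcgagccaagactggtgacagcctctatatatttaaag
Neither the Ankrd2 nor the Csrp3 window held an M-CAT. E-boxes (CANNTG, the same on both strands) numbered 3 in the full 250-base window of Ankrd2, 4 in that of Csrp3 and 1 in that of Ankrd1, and 66.2% of all windows held at least 1. The matches are descriptions of letters, and binding was not measured. All 6 members were found among the RefSeq promoters, with 9 windows in all.

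Ankrd1 had the lowest FPKM of the 6 genes in uninjured muscle, at 10.1, 16.7, 11.4, 8.42 and 3.95 in replicates 1 to 5. After 3 days the values were 66.3, 185, 115, 185 and 27.1, and every sample was above every uninjured one. At day 7 they ran from 7.05 to 94.6 with a median of 68.6. Only replicate 3 lay inside the uninjured range at that time, and replicate 6, at 17.3, was just above it. By day 14 the spread had narrowed, with a lowest value of 51.9, a median of 77.1 and a highest of 100.2. Day 21 gave 80.2, 90.9, 90.8, 59.9 and 19.3. The day 14 and day 21 samples were all above the uninjured ones.

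**Figure D1:**
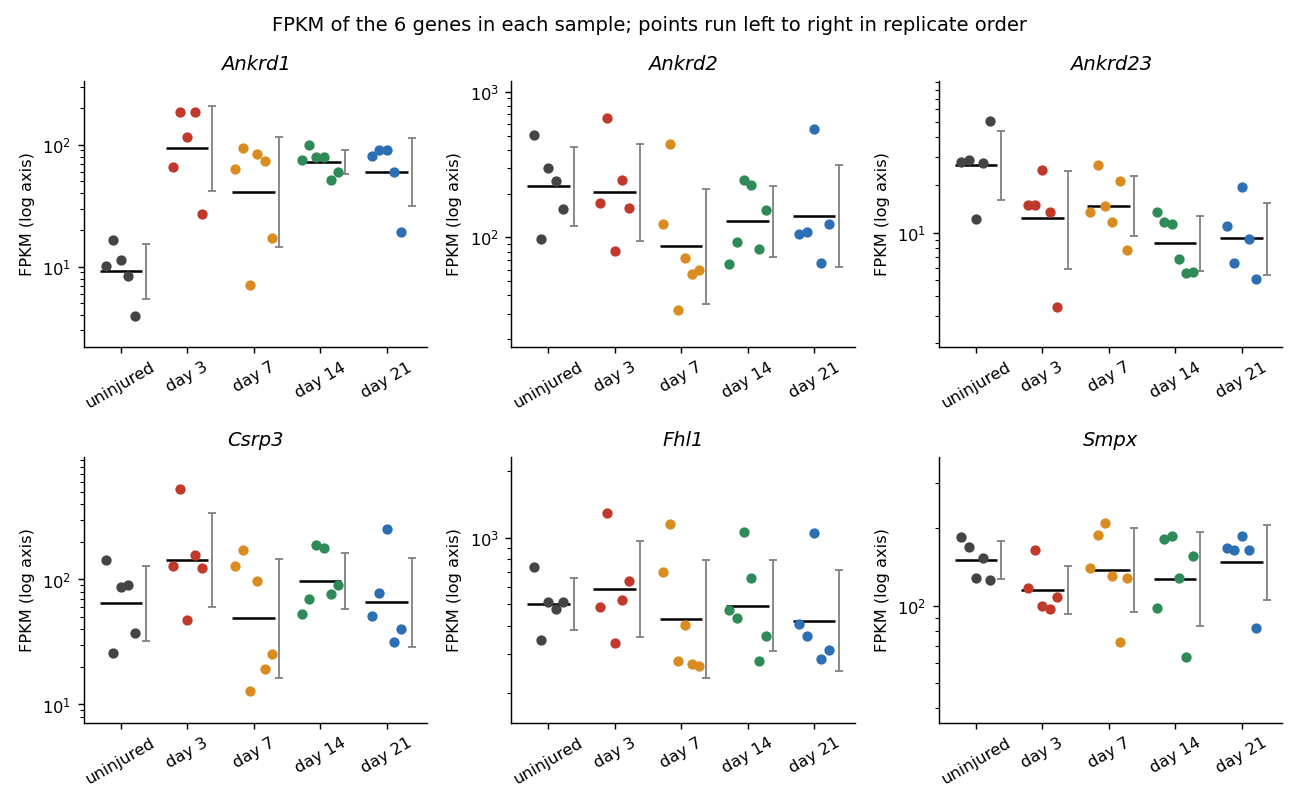
FPKM of each gene in each sample on log axes, by group, with the replicates in order from left to right. The black line is the mean of log2(FPKM + 1) turned back to FPKM and the grey bar its SD. Ankrd1 is higher after injury, Ankrd23 is lower, and in Ankrd2, Csrp3 and Fhl1 the same library is the highest of its group at each time.

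The group means of Ankrd1 were 10.1 ± 4.62 FPKM (SD, n = 5) in uninjured muscle, and 116 ± 70.5 (n = 5), 56.6 ± 36.05 (n = 6), 74.2 ± 16.8 (n = 6) and 68.2 ± 30.1 (n = 5) in order of time after VML. On the log2(FPKM + 1) scale the increase was 3.21 at day 3 (SE 0.58, limma adjusted p = 1.18e-04) and 2.04 at day 7 (SE 0.56, limma adjusted p = 0.00820). After 14 days it was 2.84 (SE 0.56, limma adjusted p = 0.00158), and after 21 days 2.57 (SE 0.58, limma adjusted p = 0.0151). Ankrd1 ranked 87, 113, 22 and 19 from the top of the 14630 genes by log2 fold change at days 3, 7, 14 and 21. In order of mean FPKM the times run day 3, day 14, day 21, day 7 and uninjured, and none of the neighbours among the injured times differed past the threshold. Without day 7 replicates 3 and 6 and day 21 replicate 5, the increase was 2.94 at day 7 (limma adjusted p = 9.91e-06) and 2.97 at day 21 (limma adjusted p = 8.07e-05). These libraries were set apart by the regenerating-fibre genes, which followed Ankrd1 within the groups (r = 0.84). Leaving them out therefore favours a larger Ankrd1 increase and is not an independent check of it. With the samples scaled to TPM, the day 21 call was lost (2.72, limma adjusted p = 0.0909), and it was also lost without uninjured replicate 5 (limma adjusted p = 0.0517) or without day 21 replicate 2 (limma adjusted p = 0.0509).

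Ankrd23 (ENSMUSG00000067653, chr1:36530188-36536883, minus strand), the diabetes-related member of the family, was lower after injury. It overlaps a predicted gene, Gm42417, listed at 0 in all samples. Uninjured muscles had 27.98, 28.8, 12.2, 27.4 and 50.4 FPKM. Day 3 muscles had 14.9, 14.9, 24.8, 13.5 and 3.42, with 1 of the 5 below all uninjured samples. Day 7 ran from 7.77 to 26.6 with a median of 14.1, and day 14 from 5.56 to 13.6 with a median of 9.09. At day 14, 5 of 6 samples lay below every uninjured sample, and at day 21 (11.1, 6.46, 19.3, 9.15 and 5.08 FPKM) 4 of 5 did. The lowest uninjured value, 12.2 in replicate 3, is what made the groups overlap at both times.

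The mean of Ankrd23 was 29.3 ± 13.6 FPKM (SD, n = 5) in uninjured muscle and 14.3 ± 7.58, 15.9 ± 6.81, 9.12 ± 3.53 and 10.2 ± 5.59 at days 3, 7, 14 and 21 (n = 5, 6, 6 and 5). The log2 difference was -1.06 after 3 days (SE 0.41, limma adjusted p = 0.0369), -1.53 after 14 days (SE 0.39, limma adjusted p = 0.00792) and -1.44 after 21 days (SE 0.41, limma adjusted p = 0.0475). At day 7 it was -0.82 and did not pass (limma adjusted p = 0.114, 95% interval of the fold 0.326 to 0.991), whereas without uninjured replicate 3 it was -1.08 and passed (limma adjusted p = 0.0457). The day 3 and day 21 calls were close to the threshold. The day 3 call was lost without day 3 replicate 5, the library at 3.42 FPKM (-0.66, limma adjusted p = 0.156), and without any of uninjured replicates 1, 2, 4 and 5 or day 3 replicate 4 (limma adjusted p from 0.0545 to 0.117). The day 21 call was lost without the 3 libraries that stood apart (-1.25, limma adjusted p = 0.0972) and held in 12 of the 27 fits that left out 1 sample. Under TPM the differences were -0.28, -1.07 and -1.23 at days 3, 14 and 21, and none of them passed.

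**Figure D2:**
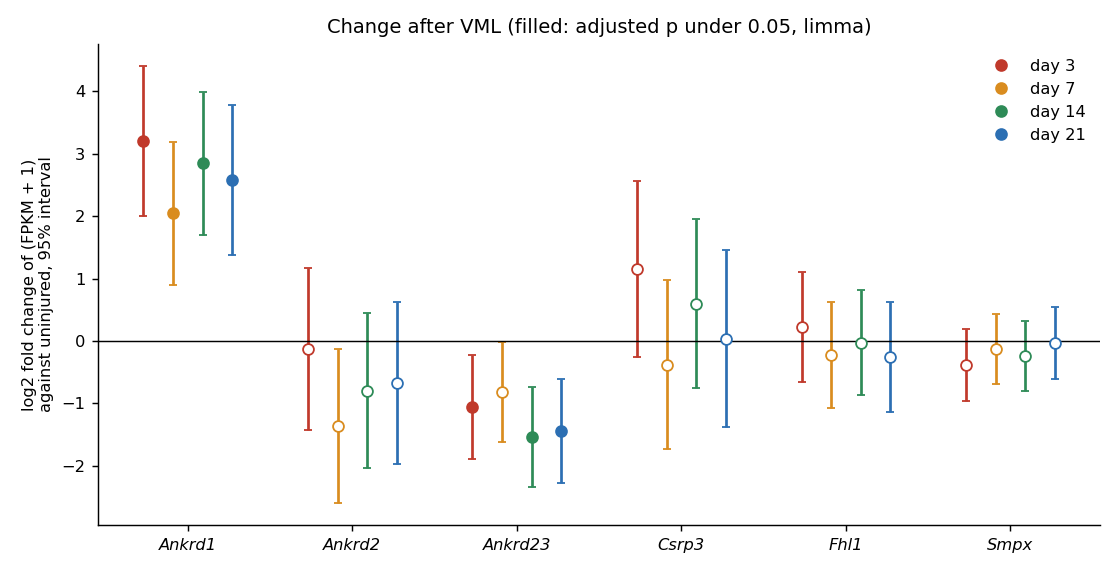
Log2 fold change of (FPKM + 1) against uninjured muscle for each gene and time, with 95% intervals from limma and filled points for an adjusted p under 0.05. The 4 filled Ankrd1 points lie above 0 and the 3 filled Ankrd23 points below it, and the points of the other 4 genes are open.

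Ankrd2 (ENSMUSG00000025172, chr19:42036038-42045110, plus strand) is the family member enriched in slow muscle and induced by stretch. In uninjured muscle it had 506, 97.6, 301, 243 and 156 FPKM, more than the other 2 ankyrin genes in each sample. Day 3 values were 172, 659, 80.5, 247 and 158, around the uninjured ones. At day 7 they ran from 31.8 to 440 with a median of 65.9, and 4 of 6 samples lay below all uninjured ones. At day 14 they ran from 65.6 to 249 with a median of 124. Day 21 values were 106, 109, 554, 66.7 and 124. The group means moved from 261 ± 158 FPKM (SD, n = 5) to 263 ± 229, 130 ± 155, 146 ± 78.2 and 192 ± 204, with SDs near or above the mean at days 3, 7 and 21.

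The log2 difference of Ankrd2 was -0.13, -1.36, -0.79 and -0.68 at days 3, 7, 14 and 21, with limma adjusted p of 0.889, 0.0882, 0.360 and 0.590. The day 7 difference is compatible with folds from 0.165 to 0.920, and the day 3 difference with folds from 0.373 to 2.24, so at day 3 neither a higher nor a lower level was detectable. Without day 7 replicate 2, the library at 440 FPKM, the day 7 difference was -1.82 and passed (limma adjusted p = 0.0166).

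Since the 3 ankyrin genes bind the same titin segment, their proportions were compared within each library, where scaling between libraries has no effect. In uninjured muscle Ankrd1 made up 4.38 ± 4.12% (SD, n = 5) of their summed FPKM, Ankrd2 83.0 ± 11.3% and Ankrd23 12.6 ± 9.06%. In order of time after VML the Ankrd1 share was 31.2 ± 15.4%, 30.1 ± 16.1%, 35.0 ± 11.7% and 31.1 ± 16.2% (n = 5, 6, 6 and 5). The lowest injured share, 13.1%, was above the highest uninjured one, 11.6%, so the groups did not overlap at any time. That includes day 7 replicate 3, in which the Ankrd1 level was in the uninjured range. Ankrd2 in that library, at 31.8 FPKM, was the lowest of all samples, so the share there does not show a higher Ankrd1 level. The two-sided exact permutation p was 0.00794, 0.00866, 0.00216 and 0.00794 at days 3, 7, 14 and 21, where the smallest possible is 0.00794 with 5 against 5 samples and 0.00216 with 6 against 5.

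Ankrd2 remained the largest of the 3 on average, at 64.1, 58.3, 60.6 and 64.5% of the sum at days 3, 7, 14 and 21 (exact permutation p = 0.0714, 0.0238, 0.0303 and 0.0873). The Ankrd23 share was 4.74, 11.5, 4.42 and 4.36% (exact permutation p = 0.135, 0.861, 0.0476 and 0.0794). Of these 12 share comparisons, the 4 of Ankrd1 passed the threshold of 0.05 after adjustment for 12 tests. The 4 also passed without the 3 libraries that stood apart. However, no share comparison passed once uninjured replicate 1, 3, 4 or 5 was left out, so these calls depend on single uninjured samples.

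**Figure D3:**
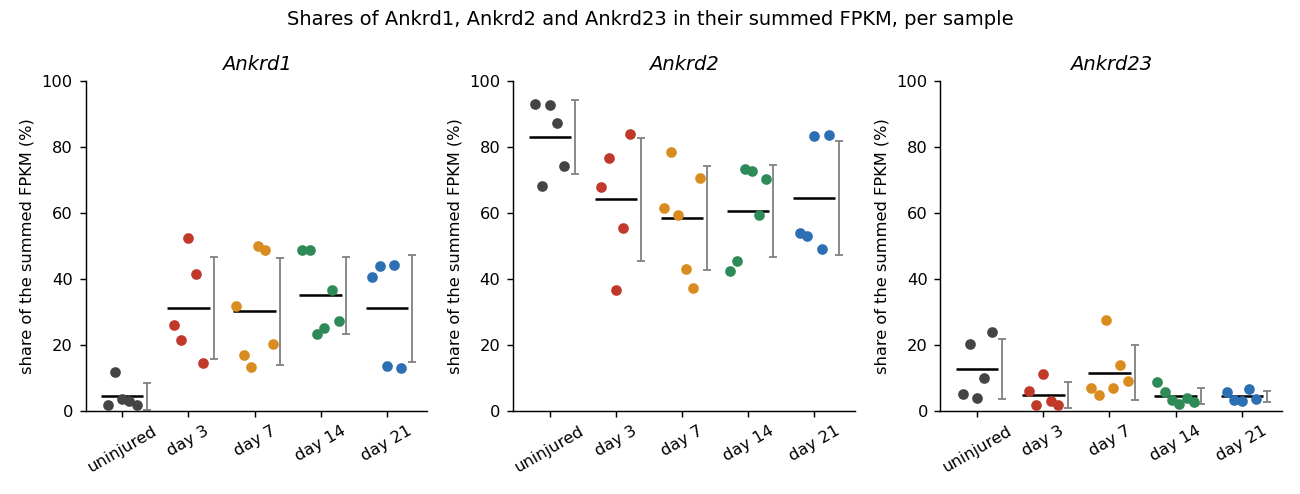
Share of each ankyrin gene in the summed FPKM of the 3, per sample in replicate order, with the group mean (line) and its SD (grey bar). The Ankrd1 share is 1.86 to 11.6% in uninjured muscle and 13.1 to 52.2% after injury.

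Csrp3 (ENSMUSG00000030470, chr7:48830398-48848033, minus strand) had 142, 26.02, 86.8, 90.7 and 37.3 FPKM in uninjured muscle. At day 3 it had 127, 533, 47.7, 156 and 123, and 2 of the 5 samples were above every uninjured one. Day 7 ran from 12.9 to 171 (median 60.9), with 3 samples below and 1 above all uninjured ones. Day 14 ran from 52.8 to 189 (median 83.8). Day 21 had 50.6, 77.5, 252, 31.4 and 39.9. The means were 76.6 ± 46.6 FPKM (SD, n = 5) in uninjured muscle and 198 ± 192, 75.6 ± 66.3, 110 ± 58.9 and 90.3 ± 92.0 after injury, so at day 3 and day 21 the SD was about as large as the mean.

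None of the log2 differences of Csrp3 passed, at 1.15, -0.38, 0.60 and 0.038 (limma adjusted p = 0.185, 0.700, 0.545 and 0.987). The 95% interval of the day 3 fold was 0.834 to 5.94. Scaled to TPM or to its own total of reads, Csrp3 passed as higher at day 3 (1.97, limma adjusted p = 0.0246, and 1.81, limma adjusted p = 0.0357). Heart muscle markers were near 0 in all groups, as given above.

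Fhl1 (ENSMUSG00000023092, chrX:56731787-56793346, plus strand), the most abundant of the 6, had 740, 345, 511, 479 and 515 FPKM in uninjured muscle. It overlaps Gm23258, listed at 0 in all samples. Day 3 values were 488, 1292, 334, 522 and 637. Day 7 ran from 263 to 1150 (median 339.7), day 14 from 277 to 1063 (median 453), and day 21 values were 406, 359, 1050, 284 and 311. In each injured group 1 sample was above every uninjured one, and the rest lay inside or below the uninjured range. The log2 differences were 0.22, -0.22, -0.027 and -0.25 (limma adjusted p = 0.709, 0.715, 0.970 and 0.785), with 95% intervals of the fold from 0.634 to 2.15, 0.477 to 1.54, 0.547 to 1.76 and 0.457 to 1.55.

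Smpx (ENSMUSG00000041476, chrX:157698910-157752591, plus strand) varied least of the 6 in uninjured muscle, with a coefficient of variation of 16.6%. Its FPKM in uninjured muscle were 184, 169, 128, 154 and 126, and at day 3 117, 164, 99.4, 96.8 and 108, with 4 of 5 day 3 samples below every uninjured one. Day 7 ran from 72.1 to 210.3 (median 135), day 14 from 63.3 to 186 (median 142), and day 21 values were 167, 164, 187, 164 and 81.9. The log2 differences were -0.39, -0.13, -0.24 and -0.031 (limma adjusted p = 0.288, 0.751, 0.552 and 0.967). The intervals of the fold were narrower than for the other genes, from 0.511 to 1.15 at day 3 and from 0.653 to 1.47 at day 21. With weights for sample quality the day 3 difference passed (-0.44, limma adjusted p = 0.0462), and under TPM it was 0.43, in the other direction, and did not pass.

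Between injured time points, 0 of the 36 comparisons of the 6 genes over 6 pairs of times passed with limma, and 0 passed with voom weights. The background share was 0.0478% for day 7 against day 3, 18.7% for day 14 against day 3, 25.5% for day 21 against day 3, 0.335% for day 14 against day 7, 2.25% for day 21 against day 7 and 0% for day 21 against day 14, a pair in which 909 of the 14630 genes had an unadjusted p under 0.05. Of the 36, 2 had an unadjusted limma p under 0.05, both for day 7 against day 3. These were Ankrd1, with a log2 difference of -1.16 (limma adjusted p = 0.312, two-sided exact permutation p = 0.188), and Csrp3, with -1.53 (limma adjusted p = 0.253, two-sided exact permutation p = 0.106). Without the 3 libraries that stood apart these differences were -0.26 and -0.83.

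Ankrd2, Csrp3 and Fhl1 followed each other from sample to sample within the groups. The same library was the highest of its group for all 3 genes in all 5 groups, namely uninjured replicate 1, day 3 replicate 2, day 7 replicate 2, day 14 replicate 3 and day 21 replicate 3. Once each sample was expressed as its deviation from the group mean of log2(FPKM + 1), Ankrd2 and Csrp3 had a Pearson r of 0.92 and a Spearman rho of 0.93 over the 27 samples. For Ankrd2 and Fhl1 r was 0.89 and rho 0.80, and for Csrp3 and Fhl1 r was 0.87 and rho 0.80. Each of these had a permutation p of 1e-05, the smallest that 100000 permutations can give. Leaving out the 2 samples farthest from the median gave r of 0.91, 0.83 and 0.83, and leaving out the 3 libraries that stood apart gave 0.92, 0.89 and 0.86. The relation was not particular to these 3 genes. Within the groups r was 0.91 for Fhl1 with Lmcd1, 0.85 for Ankrd2 with Myoz2 and 0.84 for Csrp3 with Hspb7, all outside the members.

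**Figure D4:**
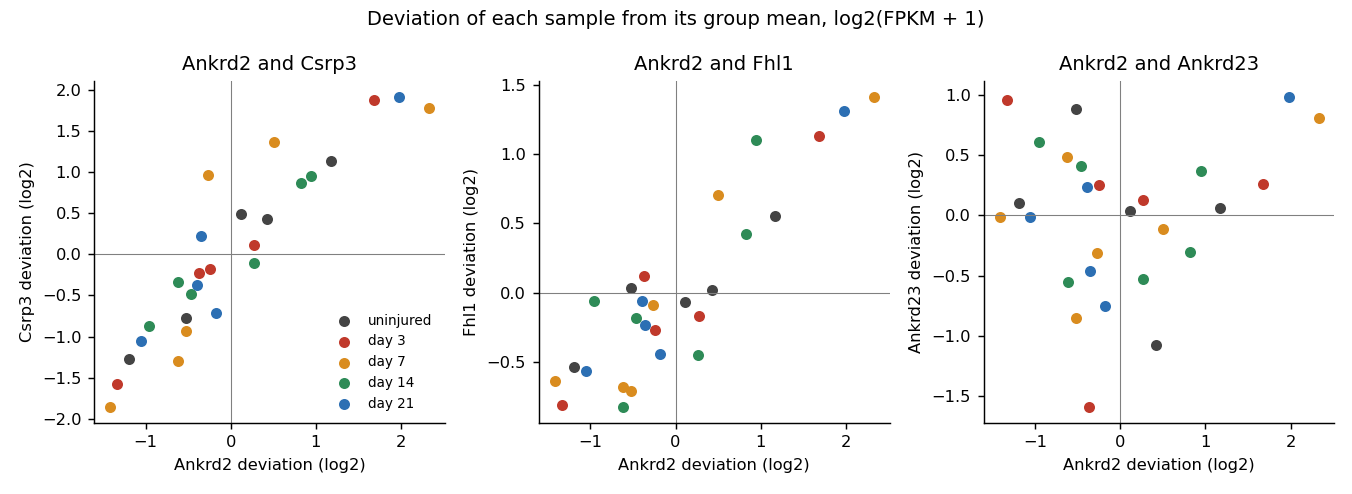
Deviation of each sample from its group mean in log2(FPKM + 1), with Ankrd2 on the x axis and Csrp3, Fhl1 or Ankrd23 on the y axis, coloured by group. Ankrd2 lies along a line with Csrp3 (r = 0.92) and Fhl1 (r = 0.89) in all groups, and with Ankrd23 r is 0.16.

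Of the 15 pairs of members, the 12 others had r from 0.065 to 0.51, with permutation p from 0.0182 to 0.768. Ankrd2 and Ankrd23, members of the same family, had r of 0.16 (rho 0.026, permutation p = 0.482 and 0.905). The slow-fibre genes are a list of 9 slow myosin, troponin and related genes. With them, r was 0.23 for Ankrd2, 0.23 for Csrp3 and 0.16 for Fhl1 (permutation p = 0.347, 0.433 and 0.538). The rho was 0.35, 0.37 and 0.27 (permutation p = 0.0948, 0.0850 and 0.218). Day 7 replicate 6 had the highest slow-fibre mean log2(FPKM + 1) of all samples, at 5.36, and these relations were not recomputed without it. The summed FPKM of the slow-fibre genes ran from 54.3 to 251 in uninjured muscle and from 40.0 to 610.0 at day 7. Whether the part of the muscle that was sampled differed between libraries was not tested.

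Ankrd1 deviated with the regenerating-fibre genes. Over the 27 samples, its deviations from the group mean had r of 0.84 and rho of 0.77 with the mean of these 14 genes (permutation p = 0.00027 and 0.00083), r of 0.75 without the 2 samples farthest from the median and r of 0.55 (n = 24) without the 3 libraries that stood apart. This was 1 of 24 relations of a member to a list. Of the others with the regenerating-fibre genes, r was from -0.076 to 0.42, with 0.42 for Csrp3 (permutation p = 0.142) and 0.37 for Ankrd23 (permutation p = 0.0457, rho 0.34, permutation p = 0.0935). The regenerating-fibre list itself was higher after injury, with 13, 12, 12 and 7 of its 14 tested genes called as higher at days 3, 7, 14 and 21, and 14, 12, 12 and 1 under TPM. Over all tested genes 23.4, 14.96, 9.02 and 1.74% were called as higher with the deposited scaling, and the shares under TPM were not computed. In day 7 replicates 3 and 6 both quantities were close to those of uninjured muscle.

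**Figure D5:**
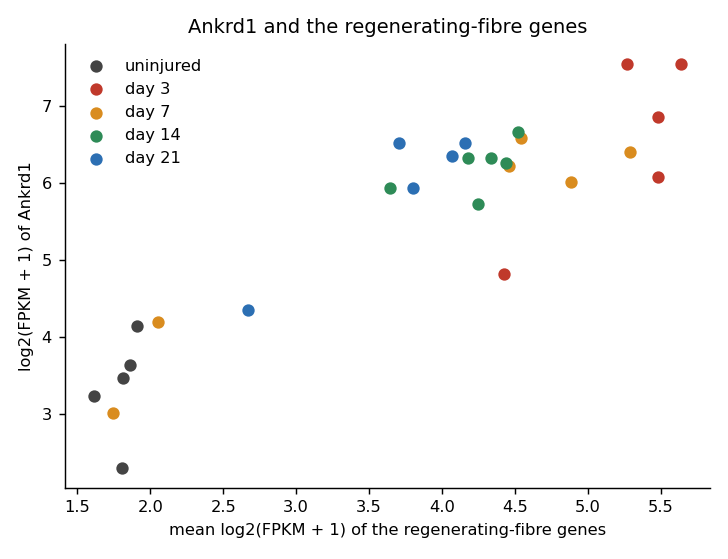
Log2(FPKM + 1) of Ankrd1 against the mean log2(FPKM + 1) of the 14 regenerating-fibre genes, 1 point per sample, coloured by group. Day 7 replicates 3 and 6, at 1.75 and 2.05 on the x axis, lie beside the 5 uninjured samples, and day 21 replicate 5, at 2.67, lies between them and the other injured samples.

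Smpx deviated with the mature fast-fibre genes (r = 0.64, rho = 0.66, permutation p = 0.00069 and 0.00096, and r = 0.52 without the 2 farthest samples) and with the 29 tested titin and Z-disc genes (r = 0.83, rho = 0.74, permutation p = 1e-05 and 0.00012, and r = 0.74 without the 2 farthest samples). Fhl1 and Ankrd2 also deviated with the titin and Z-disc genes, with r of 0.60 and 0.49 (rho 0.49 and 0.39, permutation p of r 0.00587 and 0.0248, r without the 2 farthest samples 0.48 and 0.32). For Ankrd1, r with the fast-fibre genes was -0.56 (rho = -0.39, permutation p = 0.0298 and 0.102).

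Since the summed FPKM of the fast-fibre genes differed with time, each member was also expressed relative to the mean of the 15 mature fast-fibre genes in the same library. Of 24 comparisons by two-sided exact permutation tests, 8 passed the threshold of 0.05 after adjustment for 24 tests. No comparison passed once any 1 uninjured sample was left out, so all 8 depend on single uninjured samples. Relative to these genes, Ankrd1 was higher by 4.49 on the log2 scale at day 3 (exact permutation p = 0.00794), by 3.41 at day 14 (exact permutation p = 0.00216) and by 2.90 at day 21 (exact permutation p = 0.00794). Fhl1 was higher by 1.51 at day 3, with no overlap between the groups (exact permutation p = 0.00794). Csrp3 was higher by 2.44 at day 3 (exact permutation p = 0.0159), and Smpx by 0.90 at day 3 and 0.71 at day 7 (exact permutation p = 0.0159 and 0.0130). Ankrd23 passed as lower at day 21 (-1.11, exact permutation p = 0.0159), and this call was lost without the 3 libraries that stood apart (-0.97, exact permutation p = 0.0476). As these libraries were set apart by genes that followed Ankrd1, leaving them out favours a larger Ankrd1 difference here too. Without them 10 of the 24 passed. Those gained were Ankrd1 at day 7 (4.15, exact permutation p = 0.00794), Fhl1 at day 7 (1.31, exact permutation p = 0.00794) and Smpx at day 21 (0.46, exact permutation p = 0.0159), for which the differences with all samples were 2.89, 0.62 and 0.30. These ratios show unequal change and not which side of the ratio moved. The fast-fibre genes had a median log2 difference of -1.41, -0.87, -0.72 and -0.31 at days 3, 7, 14 and 21. A gene of unchanged level therefore rises relative to them. How many of all tested genes would pass this ratio test was not computed.

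The direction depended on the reference. Relative to the 9 slow-fibre genes, Fhl1 and Smpx were lower at day 3, by -1.02 and -1.63 (exact permutation p = 0.0159 and 0.00794), and Csrp3 differed by -0.094 (exact permutation p = 0.881). Ankrd1 was higher with either reference, by 1.96, 2.13 and 2.09 at days 3, 14 and 21 relative to the slow-fibre genes (exact permutation p = 0.0159, 0.00216 and 0.00794). Ankrd23 differed by -2.31, -2.25 and -1.92 from the slow-fibre genes at the same times (exact permutation p = 0.0159, 0.00216 and 0.0159), but at day 3 by 0.22 from the fast-fibre genes and by 0.36 from Ckm (exact permutation p = 0.754 and 0.476), so its direction at day 3 turned with the reference. Ankrd2 passed as lower relative to the slow-fibre genes at day 7 (-2.22, exact permutation p = 0.0130) and day 14 (-1.51, exact permutation p = 0.0195), where it differed from the fast-fibre genes by -0.52 and -0.23 (exact permutation p = 0.535 and 0.643), the former being 0.33 without the 3 libraries that stood apart (exact permutation p = 0.619). Relative to Ckm, the muscle creatine kinase, Smpx was higher at all 4 times, by 1.04, 0.78, 0.84 and 0.65.

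The genes with which the members work were taken from lists. Over all tested genes, 23.4% passed as higher and 19.8% as lower at day 3, 14.96% and 14.4% at day 7, 9.02% and 11.3% at day 14, and 1.74% and 1.69% at day 21, and the counts of each list with the deposited scaling are to be read against these shares. The shares under TPM or the own total of reads were not computed. List counts under those 2 scalings therefore have no background beside them. Of 29 tested genes at titin and the Z-disc, 16, 13 and 6 passed as lower at days 3, 7 and 14, with a median log2 difference of -0.68, -0.71 and -0.49 against 0.012, 0.028 and 0.020 over all tested genes. At day 21 0 passed with limma and 0 with voom weights, with 3 lower at an unadjusted p under 0.05 and a median of -0.28. Among those that passed at day 3 were Myoz1, a calcineurin-binding Z-disc protein (-1.63, SE 0.38, limma adjusted p = 0.00125), and Myom1, which ties myosin filaments together at the M-band (-1.39, SE 0.26, limma adjusted p = 1.46e-04). The direction of this list depended on scaling. Under TPM 3 passed as higher and 3 as lower at day 3, with a median of 0.14, and with the own total of reads 3 and 9, with a median of -0.016. With the deposited scaling 0 of the 29 passed as higher at days 3, 7 and 14, and 0 did with voom weights, against 0, 1 and 0 at an unadjusted limma p under 0.05.

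Among 17 tested LIM genes outside the members, 9 passed as higher and 2 as lower at day 3, 6 and 1 at day 7, 4 and 0 at day 14, and 1 and 0 at day 21. Csrp2, the close relative of Csrp3 found in smooth muscle and fibroblasts, was higher by 2.93, 2.23, 1.15 and 1.04 in order of time (limma adjusted p = 1.23e-07, 8.42e-06, 0.00634 and 0.0473). Fhl2, a relative of Fhl1 best known in heart, was higher by 1.95, 1.82 and 1.55 at days 3, 7 and 14 (limma adjusted p = 7.85e-05, 3.90e-04 and 0.00246), and Fhl3 was lower by -1.03 at day 3 (limma adjusted p = 0.00244). Fibroblast markers rose with these genes, from 46.5 to 120 FPKM in uninjured muscle to 391 to 806 at day 3, and their part in these differences was not tested. Under TPM, for which the share over all genes was not computed, the list had 12, 11, 6 and 0 genes passing as higher at days 3, 7, 14 and 21.

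Of 17 tested target genes of YAP and TAZ, to which Ankrd1 itself is often counted, 8 passed as higher and 4 as lower at day 3, 4 and 0 at day 7, and 5 and 0 at day 14. The 4 lower at day 3 are near the 19.8% over all genes. At day 21 0 passed with limma and 0 with voom weights, with 3 higher and 1 lower at an unadjusted p under 0.05. Ctgf, a matricellular growth factor, was higher by 1.26 at day 7 and 1.08 at day 14 (SE 0.34 and 0.34, limma adjusted p = 0.00764 and 0.0257), and Cyr61, its relative, by 1.25 at day 14 (SE 0.38, limma adjusted p = 0.0219). Birc5, which rises in dividing cells, was higher by 2.98 at day 3 (limma adjusted p = 2.87e-06), and Tead1 was lower by -0.71 (limma adjusted p = 0.00306). Under TPM 12, 12, 4 and 0 of the 17 passed as higher and 0 as lower, and the share over all genes under TPM was not computed.

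Of 16 targets of serum response factor, 6 passed as higher and 2 as lower at day 3, 3 and 3 at day 7, and 2 and 2 at day 14, which is near the shares over all genes called in either direction. At day 21 0 passed with limma and 0 with voom weights, with 2 higher and 3 lower at an unadjusted p under 0.05. Itga5, a fibronectin receptor subunit, was higher by 1.79, 1.22 and 1.29 at days 3, 7 and 14 (limma adjusted p = 1.06e-05, 0.00120 and 0.00141), and Srf was lower by -0.65 and -0.91 at days 7 and 14 (limma adjusted p = 0.0255 and 0.00487). The median of this list was -0.0069 at day 3, and 0.56 under TPM.

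The genes whose log2(FPKM + 1) followed each member most closely over all 27 samples are given as a description, since all points share libraries and the change with time. For Ankrd1 they were Chrng (r = 0.94) and Chrna1 (r = 0.94), subunits of the acetylcholine receptor that are also in the regenerating-fibre list, and Runx1 (r = 0.93), a transcription factor. The mean FPKM of Chrng was 0.060 in uninjured muscle and 16.8, 5.84, 7.57 and 8.74 at days 3, 7, 14 and 21. Within the groups their r with Ankrd1 was 0.85, 0.88 and 0.86. For Ankrd2 the closest were Myoz2 (r = 0.83), Cryab (r = 0.81) and Lmcd1 (r = 0.81), and for Csrp3 Hspb7 (r = 0.86), Rab15 (r = 0.76) and Flnc (r = 0.75). Fhl1 shared Lmcd1 (r = 0.81), Flnc (r = 0.81) and Hspb7 (r = 0.79) with these lists. Cryab and Hspb7 are small heat shock proteins of muscle, and Flnc is filamin C of the Z-disc. For Ankrd23 the closest were Stk40 (r = 0.92), Aen (r = 0.87) and Phospho1 (r = 0.87), and for Smpx Tpd52l1 (r = 0.86), Cops5 (r = 0.82) and Mmadhc (r = 0.82).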

How the data were processed

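The authors aligned reads with HISAT2 2.0.5, counted them with featureCounts 1.5.0-p3 (versions per the submitters' processing notes) and deposited 1 table of FPKM for 54532 genes, whose scaling between samples is not given in the sources used here. Deposited FPKM multiplied by gene length gave whole reads for 100% of values (tolerance 0.01). The 14630 genes that reached 0.5 FPKM in 5 or more samples entered a fit on log2(FPKM + 1) with limma 3.58.1 (R 4.3.3), all 27 samples in one fit with a mean per group and a variance trend, two-sided, with Benjamini-Hochberg adjustment over all tested genes within each comparison. Fold changes on this scale understate changes of low genes. Groups and replicates were read from sample titles. Shares and ratios within a library were compared with exact permutation tests. Correlations of deviations used 100000 permutations of the samples within their groups. The members and lists were chosen with earlier results of these data known. Named genes are the members, for each the 3 with the highest correlation over all samples, and per list and comparison the 2 largest and 2 smallest differences among those called. The relations of members to lists and the fits without day 7 replicates 3 and 6 and day 21 replicate 5 were chosen after seeing the data. The strand setting of the counting is not given in the sources used here. The fit was tested on simulated data. Other computations used Python 3.11.15 with pandas 2.3.3, numpy 2.4.6 and matplotlib 3.10.9. Alternatives changed the pseudocount, the filter, the scaling, the weights, the trend, the groups in a fit and the samples, and added a replicate block.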

Additional observations from a re-analysis of the deposited data

Results flagged for a closer look

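In 75 groups of samples (30 of FPKM, 15 of family shares and 30 of levels relative to the fast-fibre genes), 9 held a library whose gap to its nearest neighbour took an unusually large part of the group's range. Chance marks about 1 group in 20 only if values are normally distributed and groups independent. Neither holds by design here, since FPKM were not log-transformed and Ankrd2, Csrp3 and Fhl1 followed each other. Of the 30 FPKM groups 7 were flagged, and of the 30 groups of relative levels, on the log2 scale, 1 was. Ankrd2 FPKM was 659 in day 3 replicate 2, 440 in day 7 replicate 2 and 554 in day 21 replicate 3, where the next highest values were 247, 123 and 124. Csrp3 FPKM was 533 in day 3 replicate 2 and 252 in day 21 replicate 3, and Fhl1 FPKM was 1050 in day 21 replicate 3, so the same libraries recurred in these 3 genes. Smpx was low in day 21 replicate 5, at 81.9 FPKM against 164 in the next sample and at -4.16 relative to the fast-fibre genes, and this library also had low regenerating-fibre genes. The Ankrd1 share of the ankyrin genes was 11.6% in uninjured replicate 2, against 3.51% in the next highest uninjured sample.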

How the results depend on the processing

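Over the alternatives other than leaving out 1 sample, 335 of the values of single genes kept their direction and their side of the threshold, 14 lost and 3 gained a call and 32 turned direction, the last always in differences that had not passed. Scaling to TPM turned Ankrd2 at day 3 (0.69), Csrp3 at day 7 (0.34), Fhl1 at days 7 and 14 (0.50 and 0.45) and Smpx at days 3, 7, 14 and 21 (0.43, 0.59, 0.23 and 0.16). The sample's own total of reads turned the same differences (0.53, 0.17, 0.33, 0.37, 0.27, 0.42, 0.16 and 0.16). Quantile normalization turned Ankrd2 at day 3 (0.16), Fhl1 at days 7 and 14 (0.32 and 0.35) and Smpx at days 7, 14 and 21 (0.22, 0.095 and 0.14), and weights for sample quality Csrp3 at day 7 (0.33), Fhl1 at days 7 and 14 (0.15 and 0.14) and Smpx at day 21 (0.10). Without day 7 replicates 3 and 6 and day 21 replicate 5, Csrp3 and Fhl1 at day 7 (0.32 and 0.11) and Smpx at day 21 (0.18) turned, and 1 gene was called at day 21. Without day 3 replicate 5 and day 7 replicate 5, Smpx at day 7 turned (0.052), 1 gene was called at day 3, 1 difference between injured times was called, and 5 relative levels passed. The count was 1 at day 3 with no filter and with only the 2 groups compared, 1 at day 14 under TPM and under the own total, 0 at day 21 under TPM, and 1 at day 21 with no filter, own total, quantile normalization or voom weights. Weights for sample quality called 1 difference between injured times. Leaving out 1 sample gave 1 to 2 calls at days 3 and 7 and 0 to 2 calls at day 21. It gave 0 to 6 passing shares (0 without uninjured replicate 1, 3, 4 or 5) and 0 to 8 passing relative levels (0 without any 1 uninjured sample). With 1 sample fewer, the smallest possible exact permutation p rises at days 7 and 14. At days 3 and 21 it stays at 0.00794 with 4 against 5 samples. Leaving out 1 sample turned Ankrd2 at day 3 (-0.55 to 0.20), Csrp3 at day 21 (-0.44 to 0.32), Fhl1 at day 3 (-0.060 to 0.43) and day 14 (-0.25 to 0.14), and Smpx at day 7 (-0.25 to 0.052) and day 21 (-0.12 to 0.18). The labels do not say whether equal replicate numbers pair samples. Over 51 pairs of equal number from different groups, the r of their deviations ran from -0.52 to 0.57, with a median of -0.0031. A median near 0 cannot exclude that some samples are paired, and dependence within a group was not tested. As a replicate block, the replicate number left 2, 1, 2 and 2 calls at days 3, 7, 14 and 21 and turned Fhl1 at day 14 (0.088, and 0.089 with the letter). The cause of these changes was not tested. Depth limits Ankrd1 least where it is high, with 102 to 506 reads in uninjured samples and at least 1018 at day 3.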
